A study of Mus musculus with 12 samples.

Results

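Hemoglobin and erythroid genes are the genes of the red cell line: the alpha and beta globin genes, whose mRNA travels in blood, and genes that are active in the erythroblasts of the bone marrow. The list held 9 genes, 4 adult hemoglobins (Hba-a1, Hba-a2, Hbb-bs, Hbb-bt) and 5 erythroblast genes (Alas2, Slc4a1, Klf1, Gata1, Rhag). Of these, 7 had a row among the 22317 genes of the count table, and Gata1 and Rhag were not analysed here. The members were chosen by name, with earlier results of these data known.

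RNA-seq was made from tissue of wild-type male BALB/c mice after photothrombosis, in which Rose Bengal in the blood is excited by a laser until the vessels clot. There were 4 groups of 3 libraries, described as biological replicates. SB2 and SB4 are labelled as brain cortex taken 2 and 4 days after ischemic injury in the skull, and BS2 and BS6 as interparietal bone taken 2 and 6 days after ischemic injury in the brain. The labels name no transgene and no other agent. Whether the sampled tissue was perfused is not stated in the sources used here, and uninjured tissue was not analysed here, so every comparison below is between injured animals.

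Hemoglobin is a tetramer of alpha and beta chains, each with a heme. Erythroblasts mature in the marrow, lose their nucleus and leave as reticulocytes, which still carry globin mRNA and other long-lived messages for a short time in blood. Genes such as Klf1, by contrast, act in the nucleus before it is lost. Skull bone holds marrow and cortex does not, so a cortex sample would carry red cell mRNA mainly through the blood in its vessels. In such bulk samples fewer cells of a type and less RNA per cell cannot be told apart.

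The libraries did not hold the tissue of their labels throughout. Total counts were 14126082 to 18972654 per library. The summed level of 7 matched osteoblast and bone matrix genes was 67520 to 77500 CPM (counts scaled to library size) in the libraries labelled SB2 and 40740 to 162500 CPM in BS6, but 26.1 to 32.9 CPM in SB4 and 30.5 to 52.1 CPM in BS2. The summed level of 8 neuronal genes was 8236 to 8368 CPM in SB4 and 7937 to 8023 CPM in BS2, but 33.3 to 63.6 CPM in SB2 and 42.0 to 126.8 CPM in BS6. The libraries labelled SB2 thus carried bone transcripts and those labelled BS2 brain transcripts, against their labels, so that in both comparisons over time the day and the tissue content cannot be told apart. Whether labels of SB2 and BS2 were exchanged was not tested; groups are named and compared by their labels throughout. BS6 replicate 2 stood apart from the other BS6 libraries: its summed neutrophil genes reached 25230 CPM against 1441 and 3368 CPM, and its bone sum was the lowest of that group.

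The globin genes lie in pairs. In GENCODE M21 on mm10, Hba-a1 (ENSMUSG00000069919.7) spans chr11:32283511-32284465 and Hba-a2 (ENSMUSG00000069917.7) chr11:32296489-32297298, both on the plus strand and 12023 bp apart. Hbb-bs (ENSMUSG00000052305.6) spans chr7:103826534-103828096 and Hbb-bt (ENSMUSG00000073940.3) chr7:103812524-103813996, both on the minus strand and 12537 bp apart. Alas2 (ENSMUSG00000025270.13) spans chrX:150547375-150570638 on the plus strand, Slc4a1 (ENSMUSG00000006574.15) chr11:102348824-102366203 on the minus strand and Klf1 (ENSMUSG00000054191.8) chr8:84901928-84905291 on the plus strand. Counts were given per gene, so no exon or transcript of a gene was measured separately.

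Klf1 is the factor that binds CACC boxes of the beta globin gene. The 250 bases before the RefSeq start (GRCm38.p6) are shown for 5 members, 5′ to 3′ on the strand of the gene, with motif matches in capitals. No such window was available for Slc4a1. Whether the members share a regulator was not tested. The motifs were AGATAA and TGATAA, which GATA factors bind, CCNCNCCC for the CACC box, and TATAAA, all searched on both strands; of the 4 CCNCNCCC matches in Alas2, the 3 farthest from the start overlap.
Hba-a1, chr11:32283422-32283671: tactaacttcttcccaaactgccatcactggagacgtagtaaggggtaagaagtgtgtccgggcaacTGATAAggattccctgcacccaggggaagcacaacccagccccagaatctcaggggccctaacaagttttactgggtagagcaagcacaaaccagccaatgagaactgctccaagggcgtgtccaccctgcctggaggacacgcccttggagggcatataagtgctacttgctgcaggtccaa
Hbb-bs, chr7:103827929-103828178: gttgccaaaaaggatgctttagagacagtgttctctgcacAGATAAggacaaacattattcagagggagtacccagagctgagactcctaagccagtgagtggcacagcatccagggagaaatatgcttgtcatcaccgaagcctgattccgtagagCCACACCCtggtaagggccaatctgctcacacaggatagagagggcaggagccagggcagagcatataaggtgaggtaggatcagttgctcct
Hbb-bt, chr7:103813924-103814173: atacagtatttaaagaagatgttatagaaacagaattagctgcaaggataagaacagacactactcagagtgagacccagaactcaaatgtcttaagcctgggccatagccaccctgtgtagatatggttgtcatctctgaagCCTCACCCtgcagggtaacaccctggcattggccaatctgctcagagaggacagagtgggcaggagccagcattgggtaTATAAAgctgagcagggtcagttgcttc
Alas2, chrX:150547167-150547416: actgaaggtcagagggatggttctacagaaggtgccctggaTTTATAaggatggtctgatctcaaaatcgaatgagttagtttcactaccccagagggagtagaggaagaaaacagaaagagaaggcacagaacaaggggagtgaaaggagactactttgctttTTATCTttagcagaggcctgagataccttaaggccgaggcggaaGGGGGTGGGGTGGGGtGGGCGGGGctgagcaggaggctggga
Klf1, chr8:84901732-84901981: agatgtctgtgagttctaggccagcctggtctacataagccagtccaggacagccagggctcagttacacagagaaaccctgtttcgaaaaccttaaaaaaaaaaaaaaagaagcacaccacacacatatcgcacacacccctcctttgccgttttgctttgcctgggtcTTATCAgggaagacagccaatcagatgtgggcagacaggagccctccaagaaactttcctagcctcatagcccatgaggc

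The Hba-a1 window held TGATAA 183 bases before the start. The window of Hba-a2 shared a run of 247 bases with it, at 97.6% identity, with the same TGATAA 186 bases before its own start. The beta pair differed more, at 69.3% identity with a longest shared run of 14 bases. Hbb-bs held AGATAA 210 bases and CCACACCC 93 bases before the start, whereas Hbb-bt held CCTCACCC at 107 bases and TATAAA at 28 bases. Alas2 held AGATAA on the opposite strand (TTATCT, 86 bases before the start), 4 CCNCNCCC matches on the opposite strand between 42 and 19 bases and TATAAA on the opposite strand (TTTATA) at 209 bases. Klf1 held TGATAA on the opposite strand (TTATCA, 80 bases). Among 32851 promoter windows of this length, 9.99% held AGATAA, 7.94% TGATAA, 45.9% CCNCNCCC and 12.4% TATAAA. A match describes letters only, and no binding was measured.

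The hemoglobins were highest in the libraries labelled BS6, lower in SB2 and lowest, at like levels, in SB4 and BS2. The summed counts of the 4 genes made up 0.809%, 1.32% and 0.697% of all counts in BS6 replicates 1, 2 and 3. In SB2 the shares were 0.133%, 0.465% and 0.145%, so replicate 2 carried more hemoglobin mRNA than the other SB2 libraries. In SB4 they were 0.0151%, 0.0243% and 0.0316%, and in BS2 0.0523%, 0.0162% and 0.0235%. The ranges of BS6 and SB2 overlapped neither each other nor those of SB4 and BS2, and the ranges of SB4 and BS2 overlapped.

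**Figure D1:**
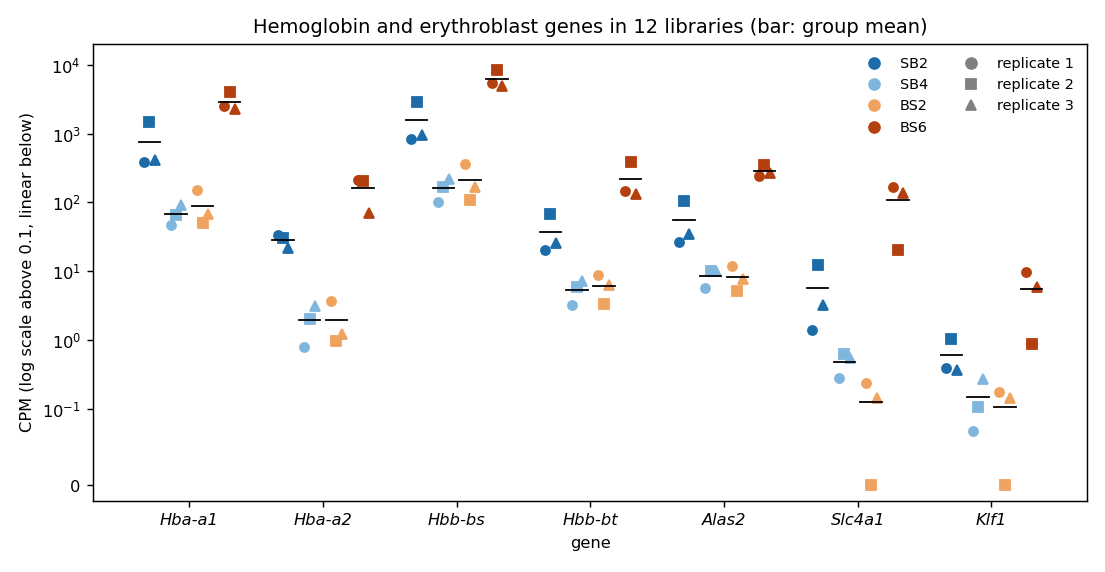
Level of each member in each of the 12 libraries, in CPM on an axis that is logarithmic above 0.1 and linear below; colours give the group, symbols the replicate and bars the group mean. BS6 libraries lie highest for every member except Klf1 in replicate 2 (0.876 CPM), which lies below SB2 replicate 2 (1.05 CPM), and Slc4a1 and Klf1 are at 0 in BS2 replicate 2.

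Hba-a1, an alpha globin gene, had 2482, 3959 and 2310 CPM in BS6 replicates 1, 2 and 3, and 385.9, 1448 and 415.5 CPM in SB2. It had 46.6, 65.4 and 93.2 CPM in SB4 and 152.9, 49.96 and 67.3 CPM in BS2. The means were 2917 ± 906.4 CPM in BS6, 749.9 ± 605 CPM in SB2, 68.4 ± 23.4 CPM in SB4 and 90.1 ± 55.1 CPM in BS2 (SD, n = 3 each). Even the lowest BS6 library lay above the highest SB2 library, while SB4 and BS2 overlapped.

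Hba-a2, the other adult alpha gene, had 212.2, 201.4 and 69.8 CPM in BS6 and 33.5, 30.8 and 21.6 CPM in SB2. It had 0.783, 2.01 and 3.13 CPM in SB4 and 3.74, 0.957 and 1.23 CPM in BS2, which rest on 11 to 63 counts. Unlike Hba-a1, this gene was not highest in replicate 2 among the SB2 libraries. The SD of SB2 was accordingly small, at 28.6 ± 6.26 CPM (n = 3).

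Hbb-bs, the major counted beta globin gene, had 5463, 8300 and 4953 CPM in BS6 and 826.2, 2882 and 944.9 CPM in SB2. It had 101.2, 170.2 and 217.6 CPM in SB4 and 361.6, 109.5 and 165.6 CPM in BS2. It followed Hba-a1 library by library. Hbb-bt, its neighbour on chromosome 7, had 145.2, 386.3 and 132.6 CPM in BS6 and 20.4, 66.8 and 26.2 CPM in SB2. Its level was 3.27, 5.86 and 7.13 CPM in SB4 and 8.72, 3.32 and 6.23 CPM in BS2. BS6 replicate 2 was the highest library for both beta genes.

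Alas2, the erythroid enzyme of the first step of heme synthesis, had 242.5, 348.1 and 270.3 CPM in BS6 and 26.4, 104.5 and 34.5 CPM in SB2. It had 5.69, 9.98 and 10.2 CPM in SB4 and 12.1, 5.23 and 7.60 CPM in BS2. The order of the libraries was close to that of the hemoglobins, with SB2 replicate 2 and BS6 replicate 2 highest in their groups.

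Slc4a1, the band 3 anion exchanger of the red cell membrane, had 168.4, 20.5 and 139.2 CPM in BS6 and 1.42, 12.3 and 3.21 CPM in SB2. In SB4 it had 4, 12 and 10 counts and in BS2 4, 0 and 2 counts. Here BS6 replicate 2 was the lowest library of its group, not the highest. Klf1, the erythroid transcription factor, had 148, 14 and 91 counts in BS6 (9.88, 0.876 and 5.89 CPM) and 7, 16 and 6 counts in SB2. It had 1, 2 and 5 counts in SB4 and 3, 0 and 2 counts in BS2, so in the libraries with brain transcripts it stood at the level of a few reads. A count of 0 allows up to 3 counts, and this limit, like the intervals below, covers counting error only.

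Per length (CPM per kb of exon), the order within BS6 was Hbb-bs (8123), Hba-a1 (3592), Hbb-bt (314.9), Hba-a2 (241.6), Alas2 (119.4), Slc4a1 (22.4) and Klf1 (3.63). The neighbours Hbb-bt and Hba-a2 did not differ beyond their spread (SD 203.4 and 118.8, n = 3). In SB2 the order was the same, with Hbb-bt at 53.7 ± 36.0 and Hba-a2 at 42.9 ± 9.39 CPM per kb. In SB4, Alas2 stood at 3.59 ± 1.06 and Hba-a2 at 2.96 ± 1.76 CPM per kb, and in BS2 at 3.46 ± 1.45 and 2.96 ± 2.30 (SD, n = 3), so there these neighbours did not differ beyond their spread. Slc4a1 and Klf1 were also close there, at 0.09998 and 0.0983 CPM per kb in SB4 and 0.0260 and 0.0703 CPM per kb in BS2.

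Hemoglobin mRNA was set against erythroblast mRNA by the ratio of counts within each library, which needs no scaling factor. Alas2 kept a narrow ratio to the hemoglobins in all 12 libraries, 20.8 to 41.0 counts per 1000 hemoglobin counts, although the hemoglobin counts themselves ran from 2134 to 205224. Per 1000 hemoglobin counts, Alas2 had 29.2, 27.1 and 36.2 counts in BS6 and 20.8, 23.6 and 24.5 in SB2. It had 37.5, 41.0 and 31.8 in SB4 and 23.0, 32.0 and 31.6 in BS2. Slc4a1 and Klf1 did not keep such a ratio. Per 1000 hemoglobin counts, Slc4a1 had 20.3 and 18.6 counts in BS6 replicates 1 and 3 but 1.59 in replicate 2. It had 1.12 to 2.77 in SB2, 1.71 to 2.60 in SB4 and 0 to 0.602 in BS2. Klf1 had 1.19 and 0.789 counts in BS6 replicates 1 and 3, 0.0682 in BS6 replicate 2 and 0.237 to 0.314 in SB2, with 0 to 0.854 in the libraries with brain transcripts on at most 5 counts each.

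**Figure D2:**
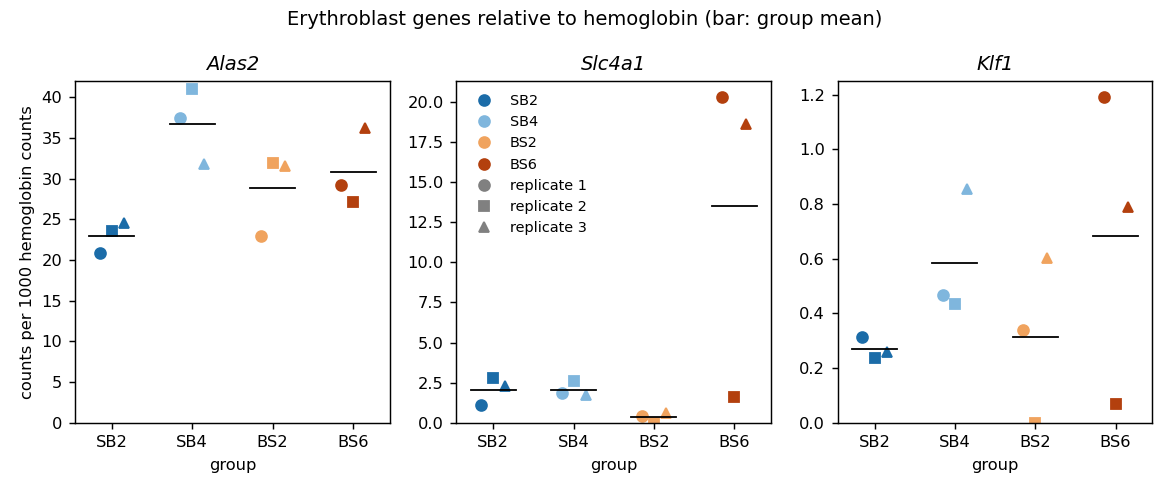
Counts of Alas2, Slc4a1 and Klf1 per 1000 hemoglobin counts in each library (vertical axes from 0, 1 scale per gene), by group, with the group mean as a bar. Alas2 lies between 20.8 and 41.0 in all libraries, whereas for Slc4a1 only BS6 replicates 1 and 3 lie above 2.77.

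With 3 libraries against 3, an exact permutation test cannot go below p = 0.1, and none of the 24 ratio tests of this family could pass a threshold (lowest adjusted p = 0.218, two-sided exact permutation). The ratio of the 3 matched erythroblast genes to hemoglobin was higher in SB4 than in SB2 by 0.64 on the log2 scale (exact permutation p = 0.1, groups not overlapping). It was lower in SB2 than in BS6 by 0.78 (difference of -0.78, exact permutation p = 0.1). Between BS6 and BS2 it differed by 0.57 (exact permutation p = 0.3). Alas2 made up most of this sum, with means of 36.8 of 39.4 per 1000 hemoglobin counts in SB4, 23.0 of 25.3 in SB2 and 30.8 of 45.0 in BS6. For Slc4a1 and Klf1 together the difference was 0.24 in SB4 against SB2 (exact permutation p = 0.6). It was 3.96 in BS6 against BS2 and -1.99 in SB2 against BS6 (exact permutation p = 0.1 and 0.3). For Slc4a1 alone the log2 ratio to hemoglobin was 4.49 higher in BS6 than in BS2 (exact permutation p = 0.1). It was 2.43 higher in SB4 than in BS2 (exact permutation p = 0.1). For this, 0.5 counts were set in place of the 0 of BS2 replicate 2. The BS6 mean depends on replicate 2, at 1.59 Slc4a1 counts per 1000 hemoglobin counts beside 20.3 and 18.6 in replicates 1 and 3. Between SB4 and SB2 the Slc4a1 ratio differed by 0.08 (exact permutation p = 0.9) while that of Alas2 differed by 0.67 (exact permutation p = 0.1).

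In BS6 replicate 2, Slc4a1 and Klf1 were low while the hemoglobins and Alas2 were not. Against the mean of BS6 replicates 1 and 3, its hemoglobin sum was 1.63 times as high (12850 against 7884 CPM), with Hba-a1 at 1.65, Hba-a2 at 1.43, Hbb-bs at 1.59, Hbb-bt at 2.78 and Alas2 at 1.36 times. Slc4a1 was 7.52-fold lower in that library and Klf1 8.997-fold lower. Of the 13 matched genes of the further red cell list described below, 11 were lowest of the BS6 libraries in replicate 2 (84.6%, beside 39.5% of 15513 genes whose BS6 mean reached 1 CPM), 1 was highest (Epb41, 182.7 CPM against 139.8 and 134.0 CPM) and 1 lay between. The 11 include Add2, Dmtn and Sptb, which neurons also make, while 8 of 8 neuronal genes were highest there (summed 126.8 CPM against 41.99 and 52.15 CPM). Of the 15513 genes, 44.0% were highest in replicate 2. Lowest there too were 5 of 6 endothelial, 7 of 7 bone, 4 of 4 iron uptake and 8 of 12 heme synthesis genes. Among the 11, Rhd (Rhesus blood group) was 6.24-fold lower, Trim10 7.26-fold lower and Ermap (erythroblast membrane-associated protein) 10.9-fold lower. These 3 genes were chosen after their values were seen. Of 9 matched erythroid transcription factors 3 were lowest and 4 highest in that library, with Nfe2, which platelet precursors also make, at 165.4 CPM against 29.0 and 31.4 CPM. The neutrophil and platelet sums were high and the bone sum low in the same library (platelet genes 447.9 CPM against 257.9 and 254.0 CPM); their part in the result was not tested. This is 1 library, so the difference has no replicate check.

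**Figure D3:**
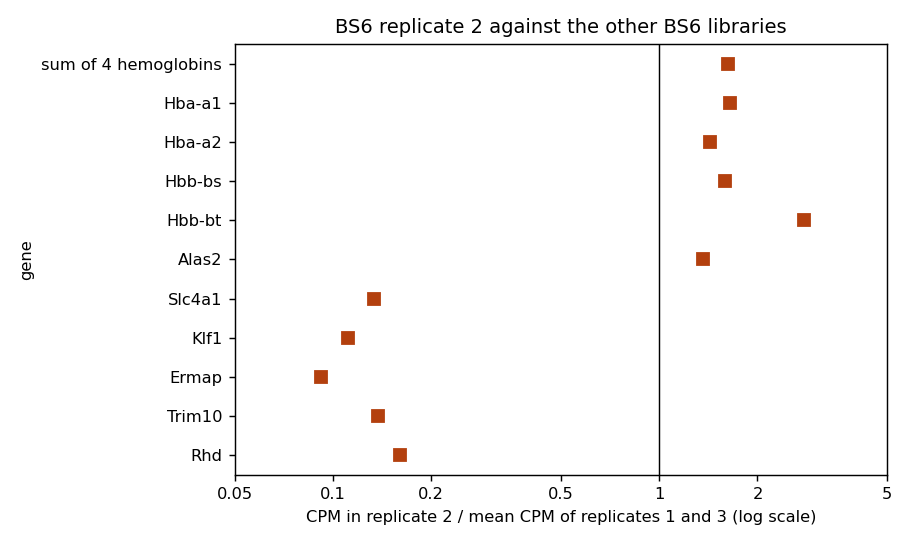
Level in BS6 replicate 2 divided by the mean level of BS6 replicates 1 and 3, on a log axis, with 1 point per gene; the vertical line marks equal levels. The hemoglobins and Alas2 lie between 1.36 and 2.78, and Slc4a1, Klf1, Ermap, Trim10 and Rhd between 0.0918 and 0.160.

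The globin copies did not share the counts of each pair evenly. Of all alpha globin counts, Hba-a2 took 7.88%, 4.84% and 2.93% in BS6 replicates 1, 2 and 3, 7.98%, 2.08% and 4.93% in SB2, 1.65%, 2.98% and 3.25% in SB4, and 2.38%, 1.88% and 1.80% in BS2. Replicates of SB2 and of BS6 thus differed among themselves as much as the groups did. Of all beta globin counts, Hbb-bt took 2.27% to 4.45% over the 12 libraries, with BS6 replicate 2 highest. The sum of the alpha counts divided by the sum of the beta counts was 0.383 to 0.502 over the 12 libraries.

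The copies are hard to tell apart by sequence. Of the 150-base stretches of the Hba-a1 transcript, 48.4% also occur in Hba-a2, and 65.7% the other way round. Of the stretches of the Hbb-bs transcript, 58.7% occur in Hbb-bt, and 50.7% the other way round. How the authors' counting treated reads that fit both copies is not given in the sources used here, so the split within a pair is uncertain and the sums are firmer than the single genes. The genome used is that of C57BL/6, whereas the animals were BALB/c, a strain whose beta globin haplotype differs.

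**Figure D4:**
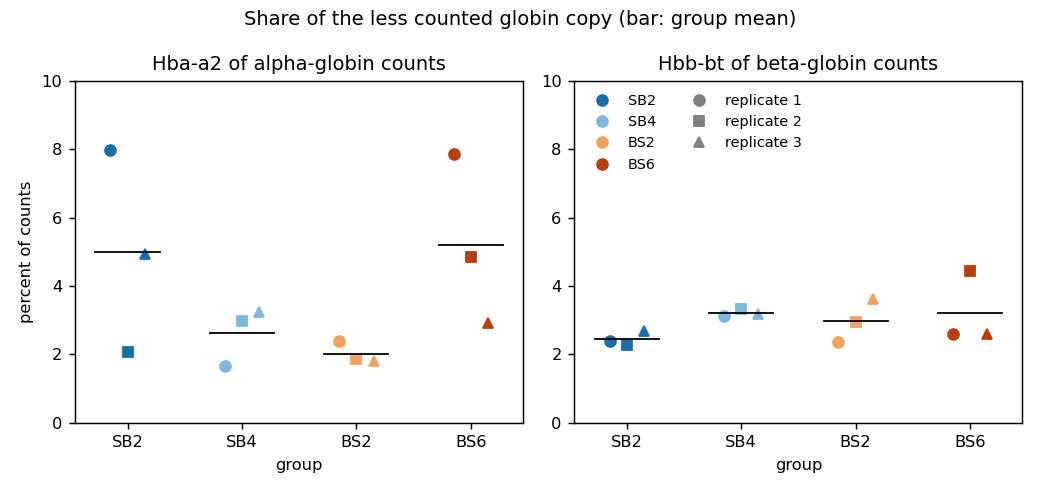
Percent of alpha globin counts on Hba-a2 and of beta globin counts on Hbb-bt in each library, by group, with the group mean as a bar. The Hba-a2 share ran from 1.65% to 7.98% and the Hbb-bt share from 2.27% to 4.45%.

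The first comparison asked how the labelled cortex changed between 2 and 4 days after skull injury. All 6 tested members were lower in SB4 than in SB2, against 28.6% of the 17293 genes tested that were called lower and 27.8% called higher (56.4% in either direction), so calls were common among all genes. A call is an adjusted p under 0.05 with an absolute log2 fold change over 1. Hba-a2 fell most clearly, by 3.79 on the log2 scale (SE 0.39, edgeR adjusted p = 9.15e-05). The log2 fold change was -3.44 for Hba-a1 (SE 0.76, adjusted p = 0.0119), -3.24 for Hbb-bs (SE 0.71, adjusted p = 0.0117) and -2.76 for Hbb-bt (SE 0.65, adjusted p = 0.0136), all by edgeR. Alas2 fell by 2.64 (SE 0.72, edgeR adjusted p = 0.0239) and Slc4a1 by 3.44 (SE 1.04, edgeR adjusted p = 0.0257). Klf1 did not pass the count filter of this test. With no filter on low counts all 7 members were called lower, Klf1 among them. DESeq2 and the fit of 12 libraries tested Klf1 and did not call it. Summed over the libraries and scaled by their sizes, the ratio of SB2 to SB4 was 10.6 for Slc4a1 (95% exact interval 7.06 to 16.5) and 3.76 for Klf1 (1.68 to 9.53). The median log2 fold change of the 4 hemoglobins was -3.34, beside -0.01 over all genes tested.

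In this comparison the bone sum fell from 67520 CPM or more to 32.9 CPM or less, and the sums of the matched platelet and megakaryocyte genes (9 of 10 listed) moved the same way, from 214.5 to 244.5 CPM in SB2 to 5.92 to 8.34 CPM in SB4. Their part in the result was not tested. Without SB2 replicate 2, the library highest in hemoglobin, all 6 members were still called and the fold changes were smaller, with Hba-a1 at -2.53, Hbb-bs at -2.42, Hbb-bt at -2.06, Alas2 at -1.79 and Slc4a1 at -2.16. That library holds 187 of the 265 Slc4a1 and 16 of the 29 Klf1 counts of SB2, and SB4 replicate 3 holds 5 of the 8 Klf1 counts of SB4. The intervals of the count ratios do not cover this spread between libraries. Leaving out SB4 replicate 1, 2 or 3 left 4, 3 and 4 calls, and Alas2 and Slc4a1 lost theirs each time.

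The second comparison asked how the labelled interparietal bone changed between 2 and 6 days after brain injury. All 7 members were higher in BS6 than in BS2, where 29% of the 17311 genes tested were called higher and 26.5% lower (55.5% in either direction). Among the hemoglobins, Hba-a2 rose by 6.32 on the log2 scale (SE 0.72, edgeR adjusted p = 0.000292) and Hbb-bt by 5.18 (SE 0.61, edgeR adjusted p = 0.000348). Hba-a1 rose by 5.02 (SE 0.54, edgeR adjusted p = 0.000227) and Hbb-bs by 4.88 (SE 0.55, edgeR adjusted p = 0.000279). Alas2 rose by 5.11 (SE 0.36, edgeR adjusted p = 3.97e-05), within the range of the hemoglobins. Slc4a1 and Klf1 were also called (edgeR adjusted p = 0.000479 and 0.00491), but their fitted folds rest on 6 and 5 counts over the BS2 libraries. Their count ratios of BS6 to BS2 were 832.5 for Slc4a1 (95% exact interval 382 to 2270) and 50.5 for Klf1 (21.4 to 157).

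The direction of all 7 held without BS6 replicate 2, with 7 calls (edgeR). The log2 fold changes were then 4.74 for Hba-a1, 4.62 for Hbb-bs, 4.94 for Alas2, 6.12 for Hba-a2 and 4.51 for Hbb-bt. Slc4a1 and Klf1 rest on 6 and 5 counts over the BS2 libraries, so only their direction is given here. Without BS2 replicate 1, the highest BS2 library, the fold changes were larger, with 7.18 for Hba-a2, 5.62 for Hba-a1 and 5.48 for Hbb-bs. That library holds 4 of the 6 Slc4a1 and 3 of the 5 Klf1 counts of BS2. The count ratios of these genes given above therefore depend on it, which their intervals do not cover. The bone sum went from at most 52.1 CPM in BS2 to at least 40740 CPM in BS6, the platelet sum from 7.02 to 10.1 CPM to 254.0 to 447.9 CPM and the neutrophil sum (6 of 8 listed genes matched) from 0.712 to 1.45 CPM to 1441 to 25230 CPM. Their part in the result was not tested.

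The libraries labelled SB2 and BS6 both held bone transcripts, and comparing them sets the members at a like tissue content, although by their labels tissue, injured site and day differ together and cannot be told apart. Hba-a2 was the only member called (log2 fold change -2.46 in SB2 against BS6, SE 0.44, edgeR adjusted p = 0.0388), in a comparison where 1.11% of 16329 genes were called lower in SB2 and 0.741% higher (1.86% in either direction). The other 6 members also had lower means in SB2 but did not pass (edgeR adjusted p = 0.0596 to 0.0989), with log2 fold changes from -1.92 for Hba-a1 to -4.25 for Slc4a1. Among the members, the libraries of SB2 and BS6 overlapped for Klf1 only, but the share of all genes without such overlap was not counted. DESeq2 and a fit of all 12 libraries called all 7 members lower in SB2. Over all genes, DESeq2 then called 752 of 22143 lower and 320 higher. The fit of 12 libraries called 947 of 18068 lower and 326 higher. Without SB2 replicate 2 the differences were larger, with Hba-a1 at -2.83, Hbb-bs at -2.78, Hbb-bt at -3.22, Alas2 at -3.20, Slc4a1 at -5.53 and Klf1 at -3.80, and 0 were called. Without BS6 replicate 2 Hbb-bt was at -1.85, and without BS6 replicate 1 Klf1 was at -2.46. The call of Hba-a2 was lost with the replicate block and without BS6 replicate 1, BS6 replicate 2 or any 1 of the SB2 libraries. Leaving out any SB2 library, or using the block, left 0 genes called in this comparison, which holds for every call between SB2 and BS6 given below. Without BS6 replicate 2, Hba-a2 had an adjusted p of 0.0818 and Klf1 passed (log2 fold change -3.68, adjusted p = 0.00279, edgeR). In the same comparison 0 of 9 platelet, 0 of 6 neutrophil, 0 of 4 B cell, 0 of 7 bone, 0 of 6 endothelial and 0 of 6 macrophage genes were called. Of 7 tested neuronal genes 1 was called, Tubb3, higher in SB2 (log2 fold change 1.14, SE 0.23, edgeR adjusted p = 0.0458). The median log2 fold changes of these lists were -0.48 for platelet, -3.04 for neutrophil, -1.04 for B cell and 0.17 for bone genes. They were -0.15 for endothelial, -0.42 for macrophage and -0.56 for neuronal genes. The neutrophil sums were 1441, 25230 and 3368 CPM in BS6 and 840.5 to 1494 CPM in SB2, so BS6 replicate 1 lay within the SB2 range and the neutrophil value rests largely on BS6 replicate 2. Their part in the result was not tested.

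The libraries labelled SB4 and BS2 both held brain transcripts. There 0 of the 5 tested members were called, in a comparison with 0.147% of 16278 genes called in either direction (0.086% higher, 0.0614% lower), and 0 had an unadjusted p under 0.05 (edgeR; DESeq2 also called 0). The log2 fold changes of SB4 against BS2 were -0.39 for Hba-a1 (SE 0.56), 0.01 for Hba-a2 (SE 0.68), -0.38 for Hbb-bs (SE 0.58), -0.15 for Hbb-bt (SE 0.43) and 0.06 for Alas2 (SE 0.38). Their sizes were below their standard errors. With such errors equal levels were not shown, and for all 5 genes the sign changed when 1 library or another was left out.

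The difference between the changes of the first and the second comparison was called lower for all 7 members (edgeR, all 12 libraries), where 37.8% of 18068 genes were called lower and 35.8% higher (73.6% in either direction). Both comparisons cross from one tissue content to the other, in opposite directions.

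**Figure D5:**
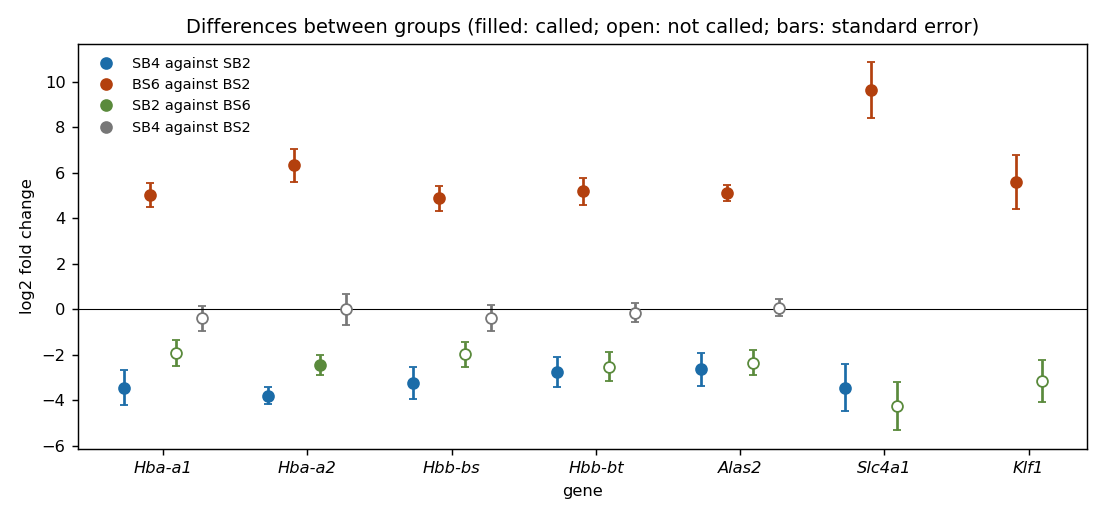
Log2 fold change of each tested member in 4 comparisons between groups, with the standard error as a bar; filled points were called by edgeR and open points were not. Members lie below 0 in SB4 against SB2 (-2.64 to -3.79) and above 0 in BS6 against BS2 (4.88 to 9.64). In the latter, Slc4a1 and Klf1 rest on 6 and 5 counts over the BS2 libraries. Members lie below 0 but mostly not called in SB2 against BS6, and near 0 in SB4 against BS2. Klf1 was not tested in SB4 against SB2, nor Slc4a1 and Klf1 in SB4 against BS2.

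The other genes of the pathway were called in both directions. Of 21 further red cell membrane and cytoplasm genes 13 had a match. In SB4 against SB2, 7 of 12 tested were called higher and 4 lower, and in BS6 against BS2, 5 of 13 were called higher and 5 lower. Over all genes tested 27.8% were called higher and 28.6% lower in the former, and 29% and 26.5% in the latter. Rhd and Ermap moved with the members in both comparisons, with Rhd at 15.4, 2.13 and 11.2 CPM in BS6, 1.51 to 3.41 CPM in SB2 and at most 0.356 CPM elsewhere. Add2, Dmtn and Sptb, which code for skeleton proteins that neurons also make, moved the opposite way: Add2 was at 398.4 ± 27.6 CPM in SB4 and 394.3 ± 10.6 CPM in BS2 but 3.30 ± 1.46 CPM in SB2 and 11.1 ± 6.23 CPM in BS6 (SD, n = 3). Aqp1, a water channel of red cells and of vessels, was higher in BS6 than in BS2, but its SB2 libraries (280.6 to 334.8 CPM) lay above those of BS6 (156.2 to 251.2 CPM), opposite to the members, with a difference that was not called (log2 fold change 0.64, SE 0.19, edgeR adjusted p = 0.0953). In SB2 against BS6 1 of 13, Epb41, was called lower (1.11% over all genes), and in SB4 against BS2 0 of 9 were called (0.147% over all genes).

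Of the heme synthesis genes, all 12 listed had a match; 5 were called higher in BS6 than in BS2 (among them Ppox, Slc25a37, Tmem14c and Alad) and 0 lower, and in SB4 against SB2 1 was higher (Alad) and 2 lower, among them Tmem14c. Over all genes tested the shares were 29% higher and 26.5% lower in BS6 against BS2, and 27.8% higher and 28.6% lower in SB4 against SB2. The median log2 fold change of the list was 0.90 in BS6 against BS2 and -0.29 in SB4 against SB2. Slc25a37, the mitoferrin that brings iron into mitochondria of erythroid cells, had 268.6, 168.9 and 185.4 CPM in BS6 and 84.6 to 99.7 CPM in SB2, and was lower in SB2 by edgeR with all libraries (log2 fold change -1.17, SE 0.20, adjusted p = 0.0343). Alad, the second enzyme of the path, was also lower in SB2 than in BS6 (log2 fold change -2.16, SE 0.27, edgeR adjusted p = 0.0293). Alas1, the housekeeping form of the enzyme that Alas2 replaces in erythroid cells, was at 50.7, 174.2 and 58.2 CPM in BS6 and was called in neither comparison over time. Fech, which inserts the iron, had a log2 fold change of 0.99 in BS6 against BS2, just under the fold threshold. Cpox, a later enzyme of the path, was called in none of the 4 comparisons, at 34.5 to 42.1 CPM in SB2 and 21.5 to 38.6 CPM in BS6.

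Iron uptake genes gave 1 call of 4 in each comparison over time (over all genes 56.4% in SB4 against SB2 and 55.5% in BS6 against BS2), and that was Steap3, an iron reductase, at 58.4 to 62.1 CPM in SB2 and 2.27 to 2.91 CPM in SB4. Tfrc, the transferrin receptor of dividing erythroblasts and of many other cells, was called in neither, and neither were Tfr2 (4.70 to 12.4 CPM over the 12 libraries) and Slc11a2 (17.5 to 38.2 CPM), an iron transporter. Of 8 other globin genes 2 had a match. Hbq1b, a theta globin gene, had 2.67, 1.81 and 2.52 CPM in BS6 against 0.0724 to 0.191 CPM in BS2. It was called higher in BS6 (edgeR adjusted p = 0.000138), but its fitted fold rests on 1 to 3 counts per BS2 library and is not given. Hbq1a was at most 0.668 CPM in any library and was tested in none of the 4 comparisons.

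Among transcription factors of the line, 9 of 10 had a match. In BS6 against BS2 6 were called higher and 1 lower, and in SB4 against SB2 2 were higher and 4 lower, beside shares over all genes of 29% higher and 26.5% lower in the former and 27.8% and 28.6% in the latter. Tal1 had 28.6, 22.8 and 26.2 CPM in BS6, 10.8 to 13.3 CPM in SB2 and 1.64 to 2.74 CPM in SB4 and BS2, and was lower in SB2 than in BS6 (log2 fold change -1.05, SE 0.14, edgeR adjusted p = 0.0304). BS6 replicate 2 was the lowest of its group, by less than for Klf1. Bcl11a, the repressor of embryonic globin genes that neurons and lymphocytes also use, was at 96.0 to 110.4 CPM in SB4 and BS2 and 1.94 to 6.86 CPM in SB2 and BS6. Ldb1, a cofactor of Tal1, was at 211.6 to 221.1 CPM in BS6 and 79.1 to 84.6 CPM in BS2 (log2 fold change 1.42, SE 0.09, edgeR adjusted p = 2.16e-05). Of the 4 comparisons between groups, Zfpm1, the cofactor of Gata1, was called only in SB4 against SB2 (log2 fold change 1.13, SE 0.11, edgeR adjusted p = 1.83e-06). Sox6 was called in none of the 4.

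Of the erythropoietin signalling list, 5 of 7 had a match. In SB4 against SB2 1 was called higher and 2 lower, and in BS6 against BS2 2 were higher and 0 lower, beside 27.8% higher and 28.6% lower over all genes in the former and 29% and 26.5% in the latter. Epor, the erythropoietin receptor, had 15.8, 7.83 and 10.4 CPM in BS6 and 2.05, 2.69 and 2.42 CPM in SB2, and was lower in SB2 (log2 fold change -2.21, SE 0.31, edgeR adjusted p = 0.0306). Its level in SB4 and BS2 was 4.92 to 7.59 CPM, so the libraries labelled SB2 held the lowest values of all 12. Epor was the gene called higher in SB4 than in SB2 (log2 fold change 1.31, SE 0.20, edgeR adjusted p = 9.94e-05), opposite to the members. The kinase Jak2 was called in neither comparison over time, whereas its targets Stat5a and Stat5b, which act in many cells, were lower in SB4 than in SB2 (log2 fold change -4.39 and -1.20) and higher in BS6 than in BS2 (4.39 and 1.61, all called by edgeR).

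The genes most like the members were sought among 16106 genes by Pearson correlation of log2(CPM + 1) over the 12 libraries, which fall into clusters by tissue content, so the values are descriptions. The genes closest to the hemoglobin sum were Ube2l6 (0.981), Gimap3 (0.976), Fam46c (0.976), Smpdl3a (0.976) and Ms4a4b (0.975). Among the 5 closest to the mean of the 3 erythroblast genes were Fech (0.992), Acbd4 (0.976), Trim10 (0.975) and Slc25a37 (0.974). With the group means subtracted, Ube2l6 (0.893) remained among the 5 closest to hemoglobin. Fn3k (0.933) and Jmjd8 (0.935) were then among the 5 closest to the erythroblast genes. Between groups Fn3k ran opposite to the members, with means of 28.8 CPM in SB4, 28.5 in BS2, 1.82 in SB2 and 5.39 in BS6. Jmjd8 had means of 15.0 to 18.2 CPM. Others among the 5 of each target were also higher in SB4 and BS2 than in SB2 and BS6. The libraries share tissue content and scaling, and Fech, Trim10 and Slc25a37 were also on the fixed lists.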

How the data were processed

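RNA-seq was analysed in 12 libraries, 3 in each group, grouped by their titles. The authors made libraries from poly(A) RNA, cleaned the reads with fastp and mapped them to mm10 with HISAT2 2.1.0 (per the submitters' processing notes), and deposited raw counts per gene symbol, without normalization. The counting program, its annotation and use of strand, and whether the counts precede a batch correction, are not given in the sources used here. Totals were 14126082 to 18972654 counts per library, reads without molecular identifiers.

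Counts were tested in fits of 2 groups with edgeR 4.0.16 in R 4.3.3 (filterByExpr minimum count 10, TMM, robust quasi-likelihood test, Benjamini-Hochberg over all genes tested), called at adjusted p under 0.05 and absolute log2 fold change over 1. Standard errors were obtained by dividing the fold change (log2) by the root of F. One contrast over all 12 libraries tested whether the 2 changes with time differ. CPM used TMM factors over the 12 libraries, and lengths and positions are those of GENCODE M21. Ratios used a two-sided exact permutation test (scipy 1.17.1); the erythroblast sum was planned with 5 genes and computed with the 3 that matched. Motifs were searched in promoter windows from RefSeq. The edgeR step was run on counts simulated for SB4 against BS2 only, with the same dispersion for every gene. That run does not cover the larger spread between replicates of SB2 and of BS6. Replicate libraries differed by more than counting noise, and p-values measure the spread between libraries only.

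Named genes were all members, up to 4 genes per list with the highest mean CPM over the 12 libraries, and genes from among the 5 most alike. Not all of these 5 were named in each search. Others were named after their values were seen. The members and lists were chosen with earlier results of these data known. Alternatives were DESeq2 1.42.0, RLE, upper-quartile and total-count scaling, other filters, scaling without the hemoglobins, 1 fit of 12 libraries, a replicate block, and leaving out each library. The results of some genes of the lists, which stay in the counts, are not reported here.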

Additional observations from a re-analysis of the deposited data

Results flagged for a closer look

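The change over time differed between both labelled tissues for every member tested, by the contrast of SB4 against SB2 minus BS6 against BS2 over all 12 libraries (edgeR). On the log2 scale the difference of the changes was -8.47 for Hba-a1, -10.13 for Hba-a2, -8.13 for Hbb-bs and -7.96 for Hbb-bt among the hemoglobins. It was -7.77 for Alas2, -13.09 for Slc4a1 and -7.47 for Klf1, the last pair on few counts in SB4 and BS2. All 7 members were called lower in this contrast, as were 37.8% of the 18068 genes tested, and tissue content changed in opposite directions in both comparisons. Groups of 3 libraries were not tested for single outlying samples.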

How the results depend on the processing

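The calls of the members in BS6 against BS2 (7) and in the difference of the changes (7) held under every alternative run that tested them. In SB4 against SB2, leaving out 1 library gave 3 to 6 member calls. In SB2 against BS6, where 1 member was called lower, DESeq2 gave 7, the fit of 12 libraries 7 and leaving out 1 library 0 to 1. Over all genes that comparison had 121 higher and 182 lower calls, with 320 and 752 by DESeq2, 326 and 947 in the fit of 12 libraries, and 0 to 270 and 0 to 397 without 1 library (0 without any SB2 library, 270 and 397 without BS6 replicate 2). SB4 against BS2 had 14 higher and 10 lower calls over all genes, with 29 and 17 by DESeq2, 26 and 24 without a filter, 9 higher at 10 or more counts in every library, 3 and 5 in the fit of 12 libraries, and 11 to 68 and 7 to 47 without 1 library. In SB4 against BS2, leaving out 1 library gave log2 fold changes of -0.69 to 0.24 for Hba-a1, -0.47 to 0.89 for Hba-a2, -0.69 to 0.26 for Hbb-bs, -0.45 to 0.22 for Hbb-bt and -0.18 to 0.45 for Alas2. The 10 changes of sign were 0.24 for Hba-a1, 0.26 for Hbb-bs and 0.22 for Hbb-bt without BS2 replicate 1, and 0.09 for Hbb-bt without SB4 replicate 1. For Hba-a2 these values were -0.33 and -0.22 without BS2 replicates 2 and 3 and -0.47 without SB4 replicate 3, and for Alas2 -0.18, -0.05 and -0.07 without BS2 replicate 2, SB4 replicate 2 and SB4 replicate 3. Of the other single values, 13 gained and 13 lost their call and 473 kept direction and call. The cause was not tested.

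Replicate numbers did not pair the libraries: deviations of same-numbered libraries correlated at -0.09 to 0.06. With the replicate block SB2 against BS6 had 0 member calls and 0 higher and 0 lower over all genes, SB4 against BS2 had 22 higher and 39 lower, and SB4 against SB2 and BS6 against BS2 kept 6 and 7 member calls. For the ratio of erythroblast genes to hemoglobin the block gave the differences of the main test (0.64 in SB4 against SB2, exact permutation p = 0.25).

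Depth limits Slc4a1 and Klf1 in SB4 and BS2, where libraries hold at most 12 and 5 counts.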
